A study of Homo sapiens with 21 samples.

Results

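The genes described here encode the respiratory chain and the ATP synthase, the machinery of oxidative phosphorylation. They were taken by name: every gene on the array whose symbol starts with NDUFA, NDUFB, NDUFC, NDUFS, NDUFV, UQCR, COX4 to COX8 or ATP5, together with the succinate dehydrogenase genes and CYC1, and without the NDUFAF assembly factors. This gave 73 of the 12165 genes tested. Of these, 69 encode subunits: 31 of complex I, 3 of complex II, 7 of complex III, 12 of complex IV and 16 of complex V. The other 4 have the same name stems but are no subunits. They are ATP5IF1, an inhibitor of the ATP synthase, COX7A2L, a factor of respiratory supercomplexes, the pseudogene ATP5MC2P1 and the antisense RNA NDUFB2-AS1.

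Complex I takes electrons from NADH and complex II takes them from succinate. Complex III passes them on to cytochrome c, and complex IV hands them to oxygen. Complexes I, III and IV move protons out of the mitochondrial matrix, and complex V lets them flow back to make ATP. The nucleus encodes most subunits, and the mitochondrial genome encodes the rest, which were not analysed here. Acute myeloid leukaemia cells are known to draw on this pathway for their energy.

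The study reduced SYK, a cytoplasmic tyrosine kinase, in 3 human acute myeloid leukaemia cell lines and measured RNA on Affymetrix HT U133A arrays. The question behind the series is how SYK bears on the receptor FLT3, of which the monocytic line MOLM-14 holds an activating internal duplication. U937 is monocytic too, and HL-60 cells resemble promyelocytes. Each line received a hairpin RNA against luciferase (shLuc, 3 arrays) or a hairpin against SYK, shSYK_1 or shSYK_2 (2 arrays for each), which makes 9 groups and 21 arrays. All groups went through puromycin at 1 µg/ml from 48 h after infection, and all RNA was total RNA taken at day 5. Replicates were separate transductions, per the labels, and a p-value here therefore refers to repeat transductions of these 3 lines alone. The hairpins of a line share its shLuc arrays, and their changes against shLuc are therefore given side by side, while the direct difference between the hairpins does not use shLuc.

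The labels give the SYK target of each hairpin, which is shown because much of what follows is a difference between the hairpins. The capitals mark target bases 14 to 20, which pair with bases 2 to 8 of a guide that starts opposite the last target base.
shSYK_1: gcagcagaacagaCATGTCAa
shSYK_2: gcaggccatcatcAGTCAGAa

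SYK itself fell with both hairpins in every line, to an average of 25.3% of the shLuc intensity with shSYK_1 and 18.5% with shSYK_2. MOLM-14 kept 20.5%, U937 31.1% and HL-60 25.5% with shSYK_1, and 12.9%, 22.9% and 21.7% in the same order with shSYK_2. The labels of 1 array, HL-60 shSYK_2 replicate 1, conflict: its title and treatment name shSYK_2 and its source name names shSYK_1. It was kept as shSYK_2 and is the second wherever both HL-60 shSYK_2 values are listed. Its upper quartile of intensity was also the lowest of all arrays, 122.3 against 134.5 to 139.8 elsewhere, and the main counts that rest on it are also given without it or with it moved to shSYK_1.

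With shSYK_1 the RNA of most oxidative phosphorylation subunits was higher than with shLuc, by small amounts, and with shSYK_2 it was not. Averaged over the 3 lines, 50 of the 73 genes rose with shSYK_1 and SDHA and NDUFB11 fell, with a median log2 change of 0.16. A gene was said to rise or fall where the adjusted p (limma, Benjamini-Hochberg over all 12165 genes) was below 0.05. Of all genes tested, 18.2% rose and 17.4% fell (35.6% in all) in that comparison, and their median was 0.00. With shSYK_2, 11 of the 73 rose and 18 fell, with a median of -0.01. The background there was 15.6% higher and 14.7% lower (30.3% in all), with a median of 0.02. The 11 thus stood at a share near the background and the 18 at a larger one. The split with shSYK_2 depended on the scale: with each array centred on its upper quartile, 19 rose and 10 fell, while the shSYK_1 split stayed at 49 and 2. Without HL-60 shSYK_2 replicate 1, shSYK_2 gave 10 higher and 16 lower. Subunit genes are brighter than most genes on the array, and bright genes are called more often. Among the 7299 genes left when the dimmest 40% were removed, 29.4% rose and 28.8% fell with shSYK_1. Of the 70 genes of the set that were left, 56 rose and 2 fell. With shSYK_2, 23.9% of the 7299 genes rose and 25.5% fell, while 13 of the 70 rose and 24 fell.

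The shift was seen on each shSYK_1 array taken singly. Relative to the mean of the shLuc arrays of the line, the median over the 73 genes was 0.20 and 0.25 (log2) on the shSYK_1 arrays of MOLM-14. It was 0.12 and 0.15 in U937 and 0.09 on both in HL-60. On the shSYK_2 arrays it was -0.03 and -0.02 for MOLM-14, 0.02 and 0.01 for U937 and -0.03 and -0.05 for HL-60. The shLuc arrays themselves lay between -0.02 and 0.02, so all 6 shSYK_1 arrays were above every shLuc array.

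**Figure D1:**
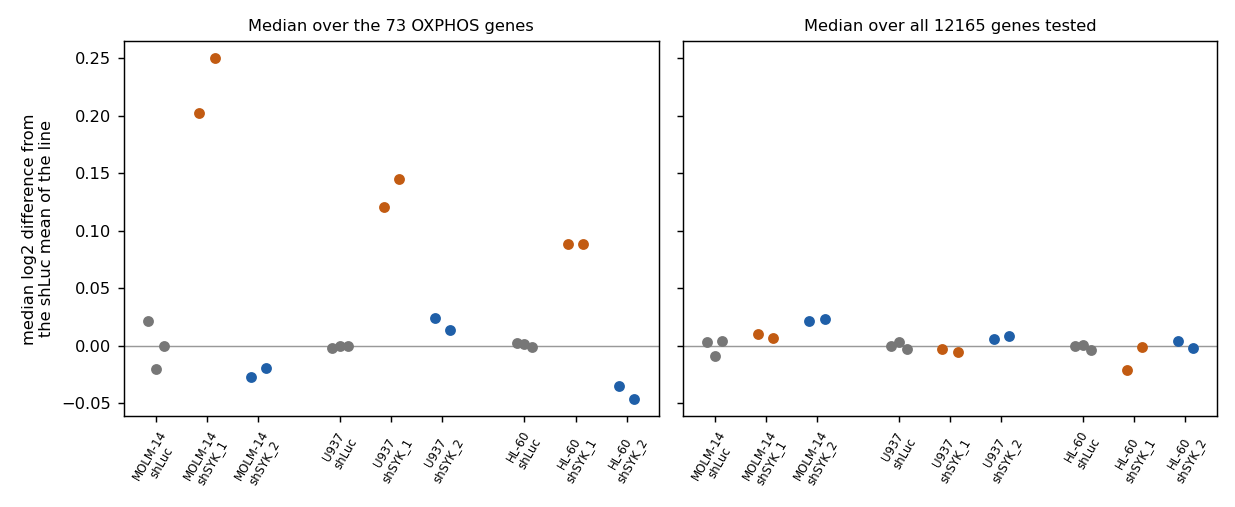
Median log2 difference from the shLuc mean of the same line, per array, over the 73 oxidative phosphorylation genes (left) and over all 12165 genes tested (right). Points are single arrays, grey for shLuc, orange for shSYK_1 and blue for shSYK_2. On the left the shSYK_1 arrays lie between 0.09 and 0.25, and no other array lies above 0.02.

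In the single lines the counts differed. With shSYK_1, 47 of the 73 genes rose and 1 fell in MOLM-14, where 13% of all genes rose and 12.5% fell. In U937, 18 rose and 1 fell, against 8.53% and 8.37% of all genes. In HL-60, 19 rose and 2 fell, against 12.5% and 11.8%. The median changes were 0.23, 0.12 and 0.09 in that order. The MOLM-14 count rests on both arrays of its group: without MOLM-14 shSYK_1 replicate 2 it was 26 higher and 1 lower, with the 1 array left assumed to vary like the other groups. In U937 the total of 19 became 12 without shSYK_1 replicate 2, and in HL-60 the total of 21 became 10 without shSYK_1 replicate 1. With the array of conflicting labels moved to shSYK_1, the HL-60 total was 5. With the arrays grouped as reported, the shSYK_1 backgrounds were higher among the 7299 genes left without the dimmest. There 22% rose and 22.5% fell in MOLM-14, 15.8% and 16.3% in U937, and 21.9% and 21.1% in HL-60. Of the 70 genes of the set left there, 53 rose and 1 fell in MOLM-14. The counts were 28 and 1 in U937, and 25 and 2 in HL-60.

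With shSYK_2, 5 genes rose and 8 fell in MOLM-14, against 8.47% and 8.12% of all genes. In U937, 8 rose and 9 fell, against 8.32% and 7.92%. In HL-60, 5 rose and 7 fell, against 10% and 11.4%. These shares are near the background and are no result about these genes. The genes that rose were NDUFA8, NDUFA10, NDUFC1, NDUFS4 and COX5B in MOLM-14 and NDUFA3, SDHC, COX6A2, COX7A1 and COX7A2L in HL-60, named because the counts are small. Of these, COX6A2 and COX7A1 were dim, with mean log2 intensities of 4.74 and 2.82 over all arrays. The directions in HL-60 followed the scale, with 9 higher and 2 lower under upper-quartile centring and 3 higher and 12 lower under median centring. In U937 upper-quartile centring gave 10 higher and 6 lower, and in MOLM-14 median centring gave 5 and 5. Without HL-60 shSYK_2 replicate 1 the HL-60 calls were 1 higher and 1 lower, COX7A2L and ATP5PF. With that array moved to shSYK_1 none of the 73 genes was called with shSYK_2 in HL-60, and 7 had an unadjusted p below 0.05 (limma).

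The arrays were also counted, without a test. In MOLM-14, 64 of the 73 genes had both shSYK_1 arrays above all 3 shLuc arrays and 1 had both below, where 24.9% and 23.6% of all genes did. In U937 the counts were 45 and 5, against 21.9% and 22.9%, and in HL-60 they were 41 and 9, against 23.6% and 24.6%. For shSYK_2 the counts were 20 above and 26 below in MOLM-14, against 26.1% and 20.7%. They were 27 and 26 in U937, against 25.2% and 22.3%, and 16 and 24 in HL-60, against 20.8% and 22.2%. Over the lines, 50 of the 73 genes had a positive shSYK_1 change in all 3 and 2, SDHA and NDUFB11, had a negative one in all 3 (21.4% and 22.1% of all genes).

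**Figure D2:**
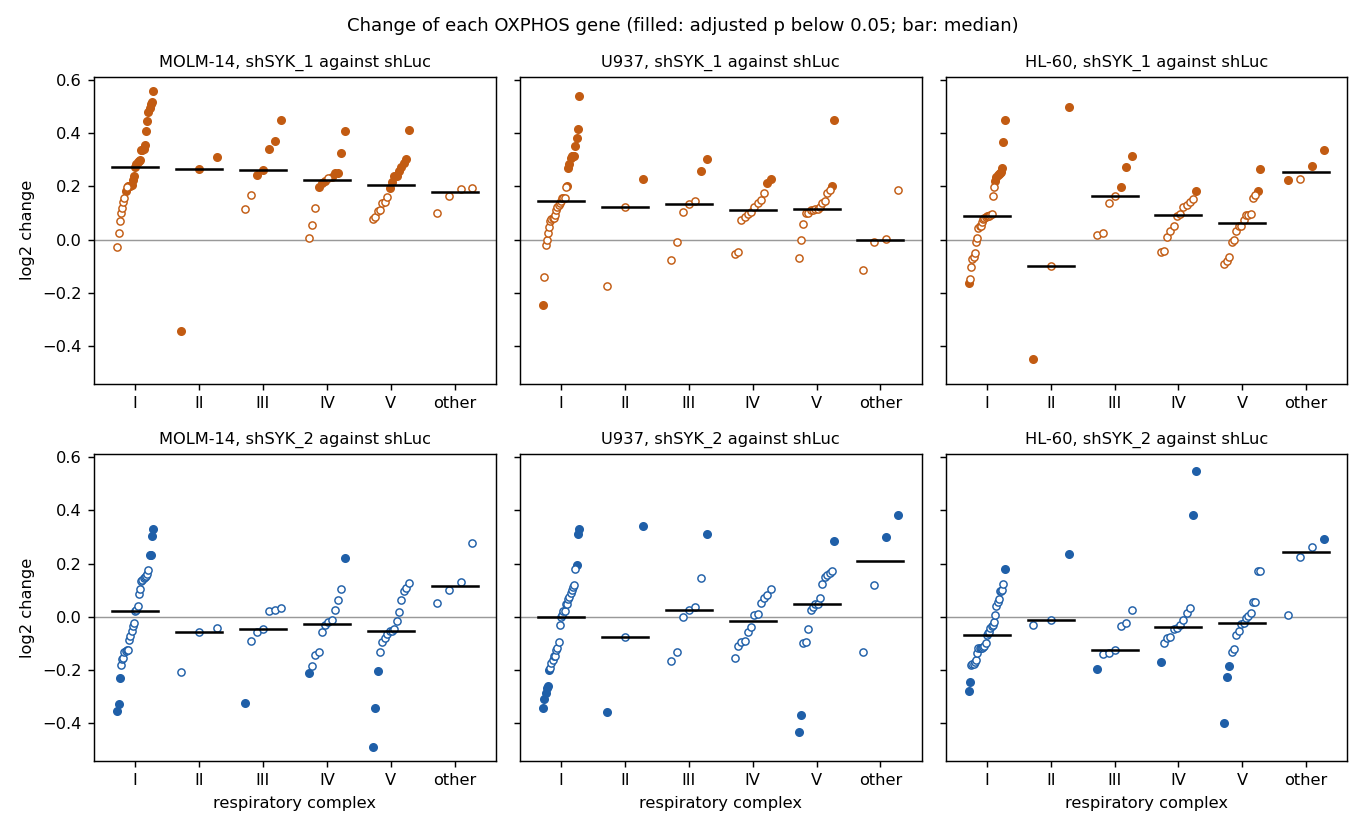
Log2 change of each of the 73 genes against shLuc, by respiratory complex (x axis), line (columns) and hairpin (rows). Filled points have an adjusted p below 0.05, open points do not, and black bars are medians. In MOLM-14 with shSYK_1 47 genes are filled above 0 and 1 below, and with shSYK_2 5 and 8.

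Complex I, the NADH dehydrogenase and the largest of the set, had the highest shSYK_1 median, 0.21, with 23 of its 31 measured genes higher and 1 lower. The order of complexes I and III varied between arrays. Complex III was higher on both HL-60 shSYK_1 arrays (0.19 and 0.13, against 0.09 on both for complex I). It was also higher on MOLM-14 shSYK_1 replicate 1 (0.31 against 0.25), and lower on the other shSYK_1 arrays. Among the 5 genes of the whole set that rose with shSYK_1 in each of the 3 lines, 4 belong to complex I: NDUFA1, NDUFA3, NDUFA5 and NDUFS1. The remaining gene is SDHD of complex II. Of all genes tested, 3.53% rose with shSYK_1 in each line and 3.47% fell in each, and no gene of the set fell in each.

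NDUFA1, a small membrane subunit needed for complex I to assemble, read 10.80, 10.70 and 10.73 (log2 intensity) with shLuc in MOLM-14, 11.28 and 11.22 with shSYK_1 and 10.63 and 10.61 with shSYK_2. In U937 NDUFA1 read 11.48, 11.52 and 11.48 with shLuc, 11.75 and 11.78 with shSYK_1 and 11.55 and 11.59 with shSYK_2. In HL-60 it read 11.22, 11.31 and 11.28, then 11.50 and 11.51, then 11.25 and 11.22, in the same order of hairpins. The shSYK_1 arrays thus lay above every shLuc array of their line for NDUFA1, while the shSYK_2 arrays lay below shLuc in MOLM-14, above it in U937 and overlapped it in HL-60. The averaged change of NDUFA1 was 0.34 ± 0.032 (SE, adjusted p = 3.24e-07, limma) with shSYK_1, a 1.26-fold rise, and -0.03 ± 0.032 (adjusted p = 0.565) with shSYK_2.

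NDUFA5, a subunit of the arm that projects into the matrix, had the largest shSYK_1 rise of the set, 0.39 ± 0.047 (SE, adjusted p = 3.77e-06, limma), or 1.31-fold. NDUFA5 read 8.99, 8.96 and 8.78 with shLuc in MOLM-14, 9.41 and 9.41 with shSYK_1 and 9.06 and 9.07 with shSYK_2. In U937 NDUFA5 read 8.85, 8.89 and 8.88, then 9.14 and 9.23, then 9.27 and 9.14. In HL-60 it read 9.18, 9.08 and 8.99, then 9.53 and 9.38, then 9.04 and 8.89. Groups did not overlap between shSYK_1 and shLuc in any line, and in U937 the NDUFA5 arrays of shSYK_2 overlapped those of shSYK_1. The averaged shSYK_2 change was 0.12 ± 0.047 (adjusted p = 0.0576).

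NDUFS1, the large iron-sulphur subunit through which electrons pass, moved in opposite directions with the 2 hairpins. NDUFS1 read 8.85, 8.95 and 8.94 with shLuc in MOLM-14, 9.18 and 9.05 with shSYK_1 and 8.58 and 8.59 with shSYK_2. In U937 NDUFS1 read 8.65, 8.59 and 8.70, then 8.81 and 8.88, then 8.40 and 8.36. In HL-60 it read 8.81, 8.80 and 8.80, then 9.07 and 9.03, then 8.72 and 8.62. In all 3 lines every shSYK_1 array of NDUFS1 lay above the shLuc arrays and every shSYK_2 array lay below them. The averaged changes were 0.22 ± 0.036 (SE, adjusted p = 0.000137, limma) and -0.24 ± 0.036 (adjusted p = 6.76e-05), and the direct difference of shSYK_2 from shSYK_1 was -0.46 ± 0.040 (adjusted p = 1.21e-07).

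Further complex I genes rose with shSYK_1. NDUFB2 rose by 0.36, NDUFA3 by 0.35, NDUFB5 by 0.34 and NDUFB3 by 0.28. Of these, NDUFA3 and NDUFB5 rose with shSYK_2 too, by 0.14 and 0.20, while NDUFB3 fell, with -0.19. NDUFB2 was not called with shSYK_2 (-0.08, adjusted p = 0.121). The core subunit NDUFS8, which carries iron-sulphur clusters, rose by 0.17 with shSYK_1 and fell with shSYK_2, with -0.23, and its neighbour in the electron path NDUFS7 changed by 0.21 and -0.17. With the array of conflicting labels moved to shSYK_1, the NDUFS8 rise and the NDUFS7 fall were no longer called. NDUFC2, a membrane-arm subunit, fell with shSYK_2 (-0.22) and was not called with shSYK_1 (0.04, adjusted p = 0.44). NDUFS4, an accessory subunit of the matrix arm, rose with both hairpins, by 0.25 with shSYK_1 and 0.18 with shSYK_2.

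NDUFB11, a membrane-arm subunit encoded on the X chromosome like NDUFA1, was the only complex I gene that fell with shSYK_1, by an averaged -0.15 ± 0.032 (SE, adjusted p = 0.0017, limma). NDUFB11 read 10.88, 10.81 and 10.83 with shLuc in U937 and 10.56 and 10.63 with shSYK_1. In HL-60 NDUFB11 read 10.67, 10.63 and 10.63, then 10.52 and 10.44. In MOLM-14 it read 10.36, 10.35 and 10.31, then 10.35 and 10.28. The fall was thus seen in U937 and HL-60, and in MOLM-14 the groups overlapped. With shSYK_2 NDUFB11 was not called (0.04, adjusted p = 0.425).

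Complex II, the succinate dehydrogenase, also takes part in the citric acid cycle. The 3 measured subunits did not move together. SDHA, the flavin subunit that oxidises succinate, fell with both hairpins, by -0.32 ± 0.043 (SE, adjusted p = 1.44e-05, limma) with shSYK_1 and -0.20 ± 0.043 (adjusted p = 0.00211) with shSYK_2. SDHD, which anchors the enzyme in the membrane, rose with shSYK_1 by 0.35 ± 0.041 (adjusted p = 3.85e-06) and was not called with shSYK_2 (0.10, adjusted p = 0.0896). The other anchor, SDHC, was called with neither on average (0.10, adjusted p = 0.054, and 0.03, adjusted p = 0.535). The direct test between the hairpins gave -0.25 ± 0.045 for SDHD (adjusted p = 0.000298), and for SDHA it gave 0.12 ± 0.047 (adjusted p = 0.0503), just outside the threshold. With the array of conflicting labels moved to shSYK_1, the difference of SDHD was no longer called.

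Per array, SDHA read 8.93, 8.88 and 8.84 with shLuc in MOLM-14, 8.59 and 8.49 with shSYK_1 and 8.65 and 8.70 with shSYK_2. In U937 SDHA read 8.51, 8.45 and 8.49, then 8.23 and 8.39, then 8.11 and 8.15. In HL-60 it read 8.45, 8.56 and 8.41, then 8.02 and 8.03, then 8.34 and 8.55. Every SYK hairpin array of SDHA lay below shLuc in MOLM-14 and U937, and in HL-60 this held for shSYK_1 while the shSYK_2 arrays overlapped shLuc, with the array of conflicting labels at 8.55. Its single probe set is of a type (_x_at) whose probes can bind other transcripts, and SDHA has near-identical pseudogenes, so its gene assignment is uncertain. SDHC, COX4I1, COX5B, COX7C, ATP5F1C, ATP5ME and ATP5MG were also read from _x_at probe sets, with the same limit on what the probes bind.

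SDHD read 9.20, 9.20 and 9.20 with shLuc in MOLM-14, 9.52 and 9.49 with shSYK_1 and 9.12 and 9.19 with shSYK_2. In U937 SDHD read 8.73, 8.65 and 8.87, then 8.91 and 9.05, then 9.05 and 9.13. In HL-60 it read 9.31, 9.31 and 9.27, then 9.86 and 9.73, then 9.28 and 9.29. The shSYK_1 arrays of SDHD were above shLuc in all lines, and the shSYK_2 arrays were above it in U937 alone of the 3 lines.

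**Figure D3:**
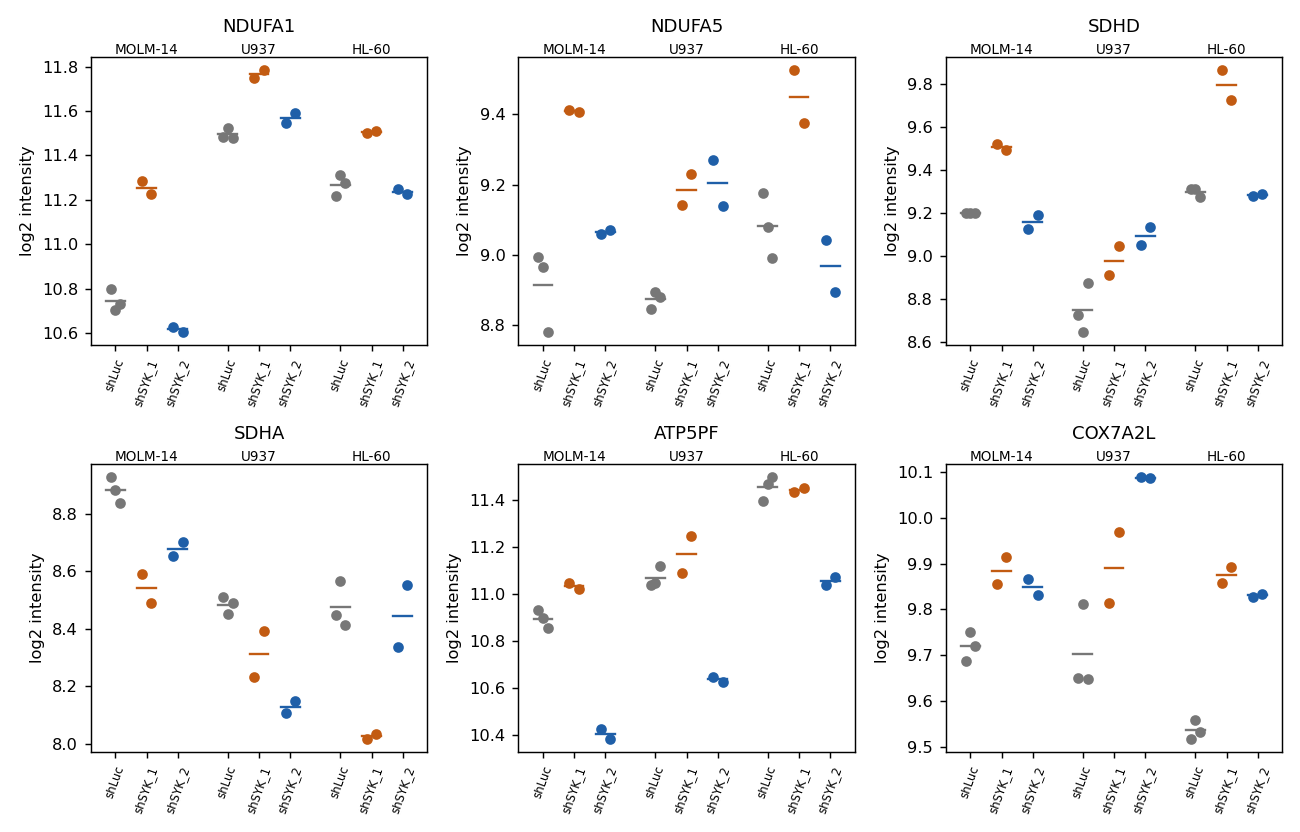
Log2 intensity of 6 genes on each of the 21 arrays, by line and hairpin. Points are arrays, short bars are group means, and the y axis of each panel spans its own range. In MOLM-14 and HL-60, NDUFA1, NDUFA5 and SDHD are highest with shSYK_1, ATP5PF is lowest with shSYK_2 in every line, and SDHA is lower with both hairpins in MOLM-14 and U937.

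In complex III, the cytochrome c reductase, 6 of 7 genes rose with shSYK_1 and none fell, with a median of 0.19. With shSYK_2, 1 fell and none rose. UQCR10, a small subunit, rose by 0.28 with shSYK_1, and CYC1, the haem-bearing cytochrome c1, by 0.19. UQCRC1, a core subunit, rose by 0.27 ± 0.048 (SE, adjusted p = 0.000277, limma) with shSYK_1 and fell with shSYK_2, with -0.19 ± 0.048 (adjusted p = 0.00522). UQCRC1 read 9.46, 9.48 and 9.45 with shLuc in MOLM-14, 9.77 and 9.84 with shSYK_1 and 9.16 and 9.11 with shSYK_2. In U937 UQCRC1 read 10.37, 10.52 and 10.30, then 10.66 and 10.43, then 10.21 and 10.32. In HL-60 UQCRC1 read 9.92, 9.98 and 9.86, then 10.20 and 10.27, then 9.89 and 9.71. The 3 groups were apart in MOLM-14 and overlapped in U937, and in HL-60 the shSYK_1 arrays lay above shLuc while the shSYK_2 arrays overlapped it. When HL-60 shSYK_2 replicate 1 was placed with shSYK_1, as its source name has it, UQCRC1 was no longer called with shSYK_2.

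In complex IV, the cytochrome c oxidase, 7 of 12 genes rose with shSYK_1 and none fell, with a median of 0.13. COX5B and COX6B1 each rose by 0.23 and COX4I1, a regulatory subunit, by 0.18. Of these, COX5B and COX4I1 were read from _x_at probe sets. With shSYK_2, COX8A (-0.14), COX7B (-0.11) and COX6A1 (-0.10) fell and none rose, and the calls of COX8A and COX6A1 were lost under upper-quartile centring. Some subunits of this complex exist in a widespread and a muscle form. COX6A1, the widespread form, had a mean log2 intensity of 12.04 over all arrays and rose by 0.16 with shSYK_1. The muscle form COX6A2 read between 4.28 and 5.44 on all arrays and was not called on average with either hairpin. In HL-60 its 2 highest values came with shSYK_2, 5.04 and 5.44, against 4.78, 4.51 and 4.78 with shLuc, the highest being the array of conflicting labels. COX7A1, the muscle form beside COX7A2, read between 2.60 and 3.15. COX7A2 was not called with either hairpin (0.01, adjusted p = 0.864, and 0.06, adjusted p = 0.33). RMA gives no detection call, so it is not known whether these dim forms were detected.

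In complex V, the ATP synthase, 11 of 16 genes rose with shSYK_1 and none fell, with a median of 0.14. ATP5MG, ATP5PD and ATP5PO, subunits of the membrane part and the stalk, rose by 0.27, 0.27 and 0.19. Of these, ATP5MG was read from an _x_at probe set. Of the catalytic head, ATP5F1B rose by 0.16, while ATP5F1A (0.04, adjusted p = 0.371) and ATP5F1C (0.07, adjusted p = 0.141) were not called. With shSYK_2, ATP5F1B (0.10) and ATP5MC2 rose and ATP5PF and ATP5MC3 fell. The c subunit, which forms the rotating ring, comes from several genes with the same mature protein. ATP5MC2 rose with both hairpins (0.12 and 0.19), ATP5MC3 rose with shSYK_1 (0.13) and fell with shSYK_2 (-0.19), and ATP5MC1 was called with neither (0.04, adjusted p = 0.533, and -0.11, adjusted p = 0.0759). Neither ATP5MC2 rise was called when its probe sets were averaged.

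ATP5PF, coupling factor 6 of the stalk, fell with shSYK_2 in each of the 3 lines. It was 1 of the 73 genes, no larger a share than the 2.03% of all genes that did so. With the array of conflicting labels moved to shSYK_1, ATP5PF was no longer called in HL-60. ATP5PF read 10.93, 10.90 and 10.85 with shLuc in MOLM-14, 11.05 and 11.02 with shSYK_1 and 10.43 and 10.38 with shSYK_2. In U937 ATP5PF read 11.04, 11.05 and 11.12, then 11.09 and 11.25, then 10.65 and 10.62. In HL-60 it read 11.40, 11.47 and 11.49, then 11.43 and 11.45, then 11.04 and 11.07. Every shSYK_2 array of ATP5PF lay below every shLuc array of its line, while the shSYK_1 arrays overlapped shLuc in U937 and HL-60. The averaged change was -0.44 ± 0.035 (SE, adjusted p = 1.03e-07, limma) with shSYK_2, to 0.738 of the shLuc level, and 0.08 ± 0.035 (adjusted p = 0.112) with shSYK_1.

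The 4 genes that are no subunits differed among themselves. COX7A2L rose with both hairpins, by 0.23 ± 0.037 (SE, adjusted p = 0.000108, limma) and 0.27 ± 0.037 (adjusted p = 3.54e-05), and had the largest shSYK_2 rise of the 73. COX7A2L read 9.52, 9.56 and 9.53 with shLuc in HL-60, 9.86 and 9.89 with shSYK_1 and 9.83 and 9.83 with shSYK_2. In U937 COX7A2L read 9.65, 9.81 and 9.65, then 9.81 and 9.97, then 10.09 and 10.09. In MOLM-14 it read 9.69, 9.75 and 9.72, then 9.85 and 9.91, then 9.87 and 9.83. Both hairpin groups of COX7A2L were above shLuc in HL-60 and MOLM-14, and in U937 the shSYK_2 arrays were the highest, while the lower shSYK_1 array was level with the highest shLuc array. By line, shSYK_1 was called in HL-60 alone, and shSYK_2 was called in U937 and HL-60 but not in MOLM-14 (0.13, adjusted p = 0.212, limma). The HL-60 call with shSYK_2 was lost when the array of conflicting labels was moved to shSYK_1. ATP5IF1 rose with shSYK_1 (0.11) and was not called with shSYK_2 (-0.02, adjusted p = 0.699). ATP5MC2P1 and NDUFB2-AS1 were dim, with mean log2 intensities of 3.41 and 3.83, and rose with shSYK_2, by 0.21 and 0.22, the former not under quantile normalisation. The array measures them apart from ATP5MC2 and NDUFB2 only as far as their probes are specific.

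The direct comparison of the hairpins tests the difference described so far. Averaged over the lines, shSYK_2 was lower than shSYK_1 for 51 of the 73 genes and higher for 1, NDUFB11 (0.18 ± 0.035, adjusted p = 0.000546, limma), with a median of -0.18. Of all genes tested, 18.4% were lower and 17.3% higher, with a median of 0.02. By complex, 25 of 31 genes of complex I were lower, 1 of 3 of complex II, 6 of 7 of complex III, 7 of 12 of complex IV and 11 of 16 of complex V. The largest differences were ATP5PF (-0.52), NDUFB3 (-0.48), UQCRC1 (-0.46), NDUFS1 (-0.46), NDUFB2 (-0.43) and NDUFS8 (-0.40), followed by NDUFS7 and UQCR10 (-0.37 each). Within MOLM-14, 45 of the 73 were lower and none higher, against 12.8% lower and 13.2% higher of all genes. Within U937, 27 were lower and 6 higher (background 11.1% and 11.9%), and within HL-60, 24 were lower and 5 higher (12.6% and 9.59%). For the hairpin difference within a line, shares among bright genes alone were not taken. Without HL-60 shSYK_2 replicate 1 the averaged comparison gave 48 lower and 1 higher, and with that array placed in shSYK_1 it gave 36 lower and 1 higher.

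**Figure D4:**
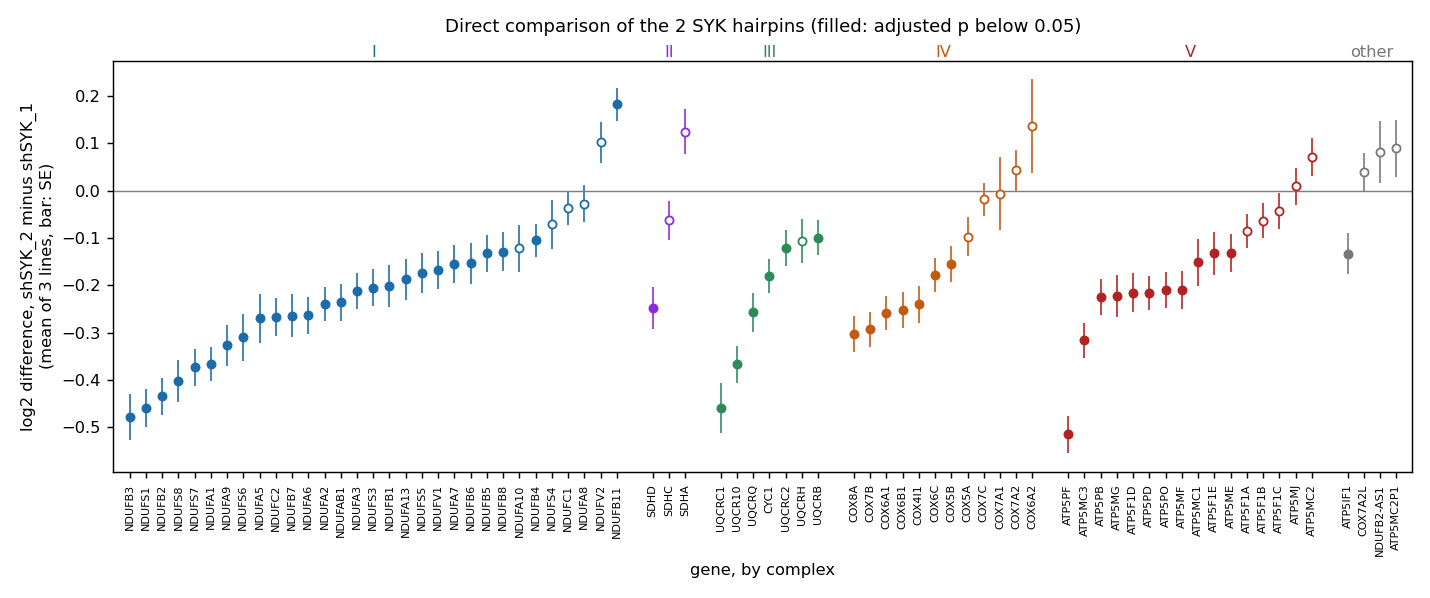
Log2 difference of shSYK_2 from shSYK_1 for each of the 73 genes, mean of the 3 lines, ordered within each complex. Bars are standard errors, filled points have an adjusted p below 0.05. The filled points lie below 0 for 51 genes and above 0 for NDUFB11.

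The lines were compared directly. A moderated F test of the difference between the lines called 10 of the 73 genes for shSYK_1, where 15.2% of all genes were called, and 9 for shSYK_2, where 15% were. Both shares are near the background. With the array of conflicting labels moved to shSYK_1 the shSYK_2 count was 0 (6 at an unadjusted p below 0.05), and with the replicate number as a block the shSYK_1 count was 0 (9 at an unadjusted p below 0.05, limma). UQCRC2, a core subunit of complex III, had the smallest adjusted p for shSYK_1 (0.0036), with changes of 0.37 (MOLM-14), -0.08 (U937) and 0.27 (HL-60). NDUFB2 changed by 0.45, 0.54 and 0.09 in that order (adjusted p = 0.00398) and NDUFB5 by 0.48, 0.08 and 0.45 (adjusted p = 0.00698). For shSYK_2, UQCRB, another complex III subunit, changed by -0.05, 0.31 and -0.03 (adjusted p = 0.00867), and ATP5MC1 by -0.13, -0.37 and 0.17 (adjusted p = 0.00884).

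The lines also differed in the control cells. The shLuc levels of 65 of the 73 genes differed between the lines (moderated F test) in log2 intensity, where those of 65.4% of all genes did. Against MOLM-14, HL-60 had 38 genes higher and 13 lower (26.4% and 23% of all genes, 49.4% in all). Against U937, HL-60 had 36 higher and 13 lower (27% and 25.8%, 52.8% in all). U937 against MOLM-14 had 25 higher and 27 lower (26.4% and 25.7%, 52.1% in all). These background shares include dim genes, which are called less often than bright ones such as the subunit genes. Shares among bright genes alone were not taken for the shLuc levels. UQCRC2 had a mean log2 intensity of 10.54 ± 0.03 (SD, n = 3) in MOLM-14, which compares with 11.65 ± 0.06 for U937 and 10.80 ± 0.05 for HL-60. UQCRQ, a small subunit of the same complex, went the other way, with 10.12 ± 0.02, 9.09 ± 0.07 and 10.07 ± 0.05. NDUFA6 and NDUFV2 of complex I were highest in HL-60, at 10.78 ± 0.07 and 10.76 ± 0.09, against 9.82 and 9.94 in MOLM-14. NDUFS7 was lowest there, at 8.40 against 8.97 in MOLM-14 and 9.34 in U937.

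Other mitochondrial genes are given by counts, to be read beside the 18.2% of all genes that rose and 17.4% that fell with shSYK_1, and the 15.6% and 14.7% with shSYK_2. No difference between these lists and the subunits was tested. Of 31 assembly factors, which build the complexes without remaining in them, 6 rose and 12 fell with shSYK_1 (median -0.04), and 9 rose and 2 fell with shSYK_2 (median -0.01). TTC19, a complex III factor, fell with shSYK_1 (-0.52 ± 0.040 SE, adjusted p = 2.42e-08, limma), and COX15, which makes haem for complex IV, fell with shSYK_1 (-0.27) and rose with shSYK_2 (0.42). HIGD2A, a complex IV factor, rose with both hairpins (0.31 and 0.22). Among 17 genes of electron carriers and coenzyme Q synthesis, 3 rose and 5 fell with each hairpin. DHODH, which feeds electrons to coenzyme Q during pyrimidine synthesis, fell with shSYK_1 (-0.79), and CYCS, cytochrome c itself, rose by 0.13.

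Of 23 genes of pyruvate dehydrogenase and the citric acid cycle, 4 rose and 6 fell with shSYK_1, and 1 rose and 7 fell with shSYK_2. DLD, a subunit shared by several dehydrogenases, fell with shSYK_1 (-0.51), and SUCLG1, a succinate-CoA ligase subunit, rose with shSYK_1 (0.45) and fell with shSYK_2 (-0.21). Of 50 mitochondrial ribosomal proteins, 5 rose and 14 fell with shSYK_1 (median -0.07), and 4 rose and 17 fell with shSYK_2. Among them MRPL20 fell with shSYK_2 (-0.78) and was not called with shSYK_1 (-0.04, adjusted p = 0.424). Of 26 carriers, porins and import genes, 5 rose and 11 fell with shSYK_1, and 3 rose and 5 fell with shSYK_2, among them the import receptor TOMM20 (-0.66 with shSYK_2).

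Among regulators of mitochondrial gene expression and biogenesis, 3 of 28 rose and 16 fell with shSYK_1 (median -0.13), and 4 rose and 6 fell with shSYK_2. HSPA9, the matrix chaperone mortalin, fell with shSYK_1 (-0.95 ± 0.043 SE, adjusted p = 3.47e-11, limma). TFAM, which packs and transcribes mitochondrial DNA, fell with both hairpins (-0.18 and -0.45), and TFB2M, a factor of mitochondrial transcription, did so too (-0.42 and -0.17). GABPB1, a subunit of the factor GABP, rose with shSYK_1 (0.80), and NRF1, another activator of subunit genes, was not called with either (-0.09, adjusted p = 0.48, and -0.22, adjusted p = 0.0771). Of 21 glycolysis genes, 7 rose and 4 fell with shSYK_1, led by HK1 (0.89), the first enzyme of the path. The vacuolar proton pump, a rotary relative of complex V outside mitochondria, had 12 of 17 genes higher and 2 lower with shSYK_1 (median 0.32), among them ATP6V0D1 (0.92), and 6 higher and 3 lower with shSYK_2.

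**Figure D5:**
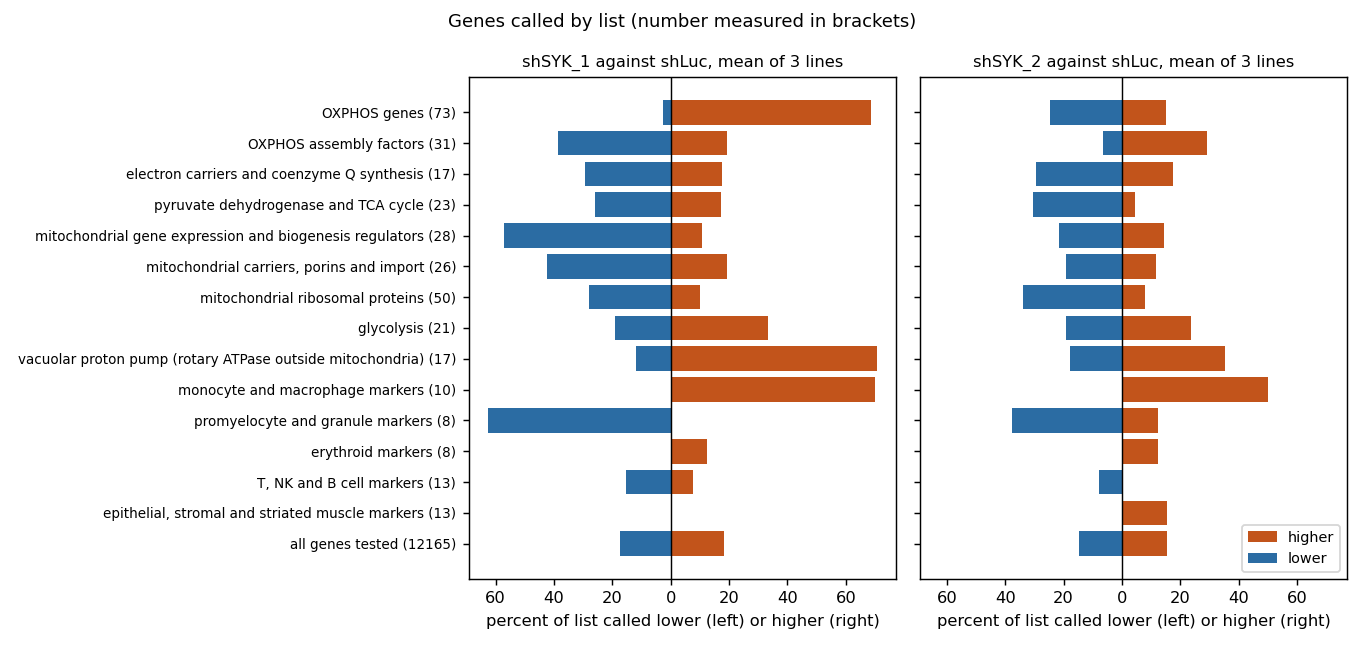
Percent of each gene list called higher (orange, to the right) or lower (blue, to the left) than shLuc, averaged over the 3 lines, for shSYK_1 (left panel) and shSYK_2 (right panel). The number of measured genes stands in brackets and the last bar is all 12165 genes, dim ones included. With shSYK_1 50 of 73 oxidative phosphorylation genes are higher, and 16 of 28 regulators of mitochondrial gene expression are lower.

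Markers of myeloid maturation moved with shSYK_1 too. Of 10 monocyte and macrophage markers 7 rose and none fell with shSYK_1, among them ITGAM (1.73) and CD14 (1.08), and of 8 promyelocyte and granule markers 5 fell and none rose. Of all genes tested, 18.2% rose and 17.4% fell with shSYK_1. The summed intensity of the monocyte markers was 696 to 751 with shLuc and 1009.8 to 1076 with shSYK_1 in MOLM-14, 314 to 327 and 610.4 to 632 in U937, and 555 to 580 and 1418 to 1444 in HL-60. With shSYK_2 the sum stood at 659 to 683 (MOLM-14), 558 to 563 (U937) and 938 to 972 (HL-60). This sum, in which the brightest markers weigh most, was thus above shLuc with shSYK_2 in U937 and HL-60 and below it in MOLM-14. The promyelocyte markers summed to 14292 to 14385 with shSYK_2 in MOLM-14, against 11103 to 11380 with shLuc. In U937 they summed to 17906 to 18884 against 18567 to 19201, and in HL-60 to 13393 to 13440 against 15468 to 16201. The part of maturation in the shSYK_1 result was not tested. These were bulk cultures, in which fewer cells of a kind and less RNA per cell cannot be told apart. Erythroid markers summed to 879.7 to 1082 with shLuc and 1611 to 1734 with shSYK_1 in U937, with no such rise in MOLM-14 or HL-60, and 1 of 8 was called higher with shSYK_1. Of 13 T, NK and B cell markers 1 rose and 2 fell, and the median change of 13 epithelial, stromal and muscle markers was -0.01.

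Promoter windows of 60 of the 73 genes were found in the RefSeq table (GRCh38.p14), with 73 annotated starts, each from 250 bases before to 50 after the start. Motifs were searched on both strands. The long NRF1 motif (GCGCA, any base, then GCGC) was in 16.4% of these windows, against 7.94% of windows of all genes on the array and 5.78% of all windows. The overlapping NRF1 core GCATGCGC was in 19.2%, against 3.82% and 3.05%. The ETS motif CCGGAAG, read by GABP, was in 26.0%, against 13.1% and 10.3%, and the YY1 motif AAGATGGCG in 12.3%, against 2.85% and 1.75%. CCAAT was in 32.9%, against 35.2% and 34.6%. A match to letters is no measure of binding, which was not measured here.

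The bases before the start are shown for the complex II pair that moved in opposite directions with shSYK_1 and for NDUFA1 and NDUFA3, which rose in each line. The SDHA window is chr5:218200-218319, that of SDHD is chr11:112086757-112086872, that of NDUFA1 is chrX:119871734-119871831 and that of NDUFA3 is chr19:54102735-54102854, all on the plus strand of GRCh38.p14 and ending at the base before the start. Capitals mark the long NRF1 motif and the ETS motif on either strand.
SDHA: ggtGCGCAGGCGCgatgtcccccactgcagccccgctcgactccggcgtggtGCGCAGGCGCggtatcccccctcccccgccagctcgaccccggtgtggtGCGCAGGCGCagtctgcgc
SDHD: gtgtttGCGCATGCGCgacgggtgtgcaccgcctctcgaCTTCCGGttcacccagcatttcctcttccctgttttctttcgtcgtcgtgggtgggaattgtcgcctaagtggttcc
NDUFA1: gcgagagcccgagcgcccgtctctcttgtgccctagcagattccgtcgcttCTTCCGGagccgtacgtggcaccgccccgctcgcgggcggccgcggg
NDUFA3: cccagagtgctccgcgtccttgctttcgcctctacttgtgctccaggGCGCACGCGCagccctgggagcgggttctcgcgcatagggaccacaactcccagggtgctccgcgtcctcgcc
SDHA, which fell, holds the long NRF1 motif at 117, 68 and 19 bases before its start. SDHD, which rose with shSYK_1, holds it at 110 bases and the ETS motif at 77. In the printed stretch NDUFA1 holds the ETS motif, at 47 bases, and no long NRF1 motif. NDUFA3 holds the long NRF1 motif, at 73, and no ETS motif.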

How the data were processed

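RNA of 3 leukaemia lines was measured on 21 arrays. The deposited table holds linear intensity values for each probe set, which the authors computed by RMA according to the submitters' processing notes (its version is not given in the sources used here). RMA corrects background, equalises the arrays and summarises probes, and it compresses small fold changes. The intensity values ran from 3.23 to 13025 with array medians of 18.4 to 20.6. Here log2 was taken without a pseudocount. The number of arrays limits the precision.

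Of 22277 probe sets, 62 controls, 568 with several gene symbols and 1923 with none were left out, and each gene was read from its brightest probe set (mean over the 21 arrays). The 73 genes had 104 probe sets, and 21 genes had several. Of these 21, all probe sets had the same call for 15 genes with shSYK_1 and 16 with shSYK_2, and 1 (NDUFA6 with shSYK_2) had opposite calls. Symbols were updated through the RefSeq gene table for 19707 probe sets.

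A model with a mean for each of 9 groups (12 residual and 4.09 prior degrees of freedom) was fitted in R 4.3.3 with limma 3.58.1, with two-sided tests and Benjamini-Hochberg adjustment over 12165 genes. The script was first tested on simulated data. Named genes were SYK, up to 8 called members with the largest rise and fall per averaged comparison, members called in all lines, the SDH genes, isoform pairs, up to 6 members differing between lines and, per other list, the genes with the smallest p. Further genes in the text (COX5B, COX7B, CYC1, CYCS, ATP5F1A, ATP5F1B, ATP5F1C, ATP5MG, ATP5PD, ATP5PO and NRF1) were chosen after their values were seen. The members and lists were chosen with earlier results of these data known. Alternatives were other probe set rules, scalings, priors, array weights, a replicate block, single lines, the other label of 1 array and each array left out.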

Additional observations from a re-analysis of the deposited data

Results flagged for a closer look

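The response to a hairpin differed between the lines for 19 combinations of gene and hairpin (moderated F test of the line differences, limma, adjusted over all genes). These were 10 of the 73 genes for shSYK_1 and 9 for shSYK_2, shares near the 15.2% and 15% of all genes called. The shSYK_1 count was 0 with the replicate number as a block (9 at an unadjusted p below 0.05), and the shSYK_2 count was 0 with the array of conflicting labels moved to shSYK_1 (6 at an unadjusted p below 0.05). For shSYK_1 the adjusted p was 0.0036 for UQCRC2, 0.00398 for NDUFB2, 0.00698 for NDUFB5, 0.00998 for NDUFV1 and 0.0168 for NDUFA10. It was 0.0221 for NDUFA3, 0.0273 for ATP5F1D, 0.0321 for SDHC, 0.0387 for NDUFA8 and 0.0447 for NDUFA1. The change was highest in MOLM-14 for all of these genes except NDUFB2, for which it was highest in U937.

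For shSYK_2 the adjusted p was 0.00867 for UQCRB, 0.00884 for ATP5MC1, 0.0112 for ATP5F1D, 0.016 for NDUFA2 and 0.0194 for NDUFS7. It was 0.0226 for SDHD, 0.0313 for NDUFC1, 0.0354 for NDUFA5 and 0.0436 for SDHC. ATP5F1D and SDHC were called for both hairpins. Taking MOLM-14, U937 and HL-60 in that order, the shSYK_1 changes of SDHC were 0.27, 0.12 and -0.10, and its shSYK_2 changes were -0.06, -0.07 and 0.23. For ATP5F1D they were 0.29, 0.17 and -0.08 with the former hairpin, and -0.20, 0.16 and -0.23 with the latter.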

How the results depend on the processing

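Under all alternatives run, 43 to 59 of the 73 genes were called with shSYK_1 averaged over the lines (52 as reported), and 37 to 59 in the direct hairpin comparison (52 as reported). Their medians kept their signs.

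With the dimmest 40% of genes left out, 29 genes were called with shSYK_1 in U937, 20 for the line difference of shSYK_1 and 15 for that of shSYK_2. With a trended and robust prior these 3 counts were 35, 30 and 20, and shSYK_2 called 26 genes of MOLM-14, 29 of U937 and 22 of HL-60. Array weights gave 1 for shSYK_2 in HL-60. Fits of a line alone gave 6 for shSYK_2 in MOLM-14, and 6 and 3 for shSYK_1 and shSYK_2 in HL-60. The median shSYK_2 change became -0.0769 in HL-60 with median centring, and 0.0657 in U937, 0.0360 in HL-60 and 0.0292 on average with upper-quartile centring. With the array of conflicting labels moved to shSYK_1, the HL-60 shSYK_1 count was 5 (median 0.0400) and shSYK_2 called 6 genes of MOLM-14, 11 of U937, 0 of HL-60 and 19 on average, with 0 for its line difference. By limma 7 and 6 genes had an unadjusted p below 0.05 in those counts of 0. With the probe sets of a gene averaged, the shSYK_2 change of NDUFA6 turned from -0.12 to 0.0095.

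Same-numbered arrays of a line were correlated as deviations from their group means, and the 18 values lay between -0.21 and 0.09. In each line the value between shSYK_1 and shSYK_2 was the same for both replicate numbers. The deviations in groups so small mirror each other, so the 18 values are not separate checks. They showed no strong pairing by replicate number, but they cannot decide whether the arrays were paired. With the replicate block, shSYK_1 called 26 genes of MOLM-14, 7 of U937 and 6 of HL-60, and shSYK_2 called 5, 8 and 4 and 19 on average. The block gave 0 line differences for shSYK_1 (9 at an unadjusted p below 0.05, limma) and 1 for shSYK_2.

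Leaving out each array in turn gave 27 to 49 shSYK_1 calls for MOLM-14, 12 to 21 for U937 and 10 to 23 for HL-60. For shSYK_2 it gave 4 to 14, 9 to 20 and 2 to 13, and for the line differences 5 to 14 and 3 to 14. In all, 588 of 642 recomputed counts and medians of the set stayed within 1.5 times the count or the spread between replicates of the median, and the 54 others are those above. The causes were not tested, except that 1 array a group and fits of fewer arrays have fewer degrees of freedom. The number of arrays limits small changes: the smallest called averaged change was near 0.10.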
